A study of Mus musculus with 43 samples.

Results

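The collagen genes are described here across lungs of mice exposed to house dust mite (HDM), with and without an antibody against IL-33. They were taken as every gene whose mouse symbol is Col, a number, the letter a and a number, with nothing after. The rule found 44 of the 24475 genes in the count table, and 37 of them passed the filter on low counts. They were read by class: 11 fibrillar collagens, 9 of basement membranes, 10 that form beaded filaments or networks, 9 fibril-associated collagens with interrupted triple helices (FACIT) and 5 transmembrane or other collagens.

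Strand-specific mRNA sequencing of lung was done in 43 libraries. The groups were 15 libraries after 15 weeks of HDM with anti-IL-33, 4 after 15 weeks of HDM with an isotype control antibody, 7 after 15 weeks of HDM with no antibody, 10 after 4 weeks of HDM with no antibody and 7 after saline. Mice of every group, saline included, were of genotype Il33hu/hu on a mixed C57BL/6NTac (75%) and 129S6SvEvTac (25%) strain. The labels give saline no time, and give no age, sex, HDM dose or antibody schedule, so time in the study and HDM cannot be told apart in the comparisons with saline. Total counts per library were 5126491 to 12599467 with anti-IL-33, 8354316 to 10243469 with isotype, 4909177 to 11507108 at 15 weeks, 4795214 to 11959383 at 4 weeks and 7090950 to 12414078 in saline. Markers of type I alveolar cells, the flat cells that line most of the alveolar surface, summed to 2616 CPM or more in every library, so markers of the labelled tissue were present in all. Levels are in CPM, the counts of a gene relative to its library's total with TMM scaling. Fold changes are log2 values of 1 edgeR quasi-likelihood fit over all libraries. Their SE was derived as the absolute log2 fold change over the square root of the test's F statistic. A gene is called where its Benjamini-Hochberg adjusted p over 15598 genes is under 0.05. Whether libraries come from separate mice is not stated, so p-values measure the spread between libraries.

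Collagens are triple helices of 3 chains, alike or different, and each kind of chain is the product of its own gene. They make up much of the matrix that gives the lung its strength and its elastic limits. Fibrillar types I, III and V form the fibres of airway walls, vessels and interstitium, and type IV forms the sheet of basement membranes, with a different set of chains under alveolar epithelium than under most other cells. Deposition of fibrillar collagen around airways is a known feature of long-standing allergic airway disease.

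Most tested fibrillar collagen genes were higher in HDM lungs than in saline lungs, and the basement membrane class held genes that were higher and genes that were lower. At 4 weeks 15 of the 37 tested members rose and 10 fell against saline, so 67.6% changed where 56.8% of all tested genes did. At 15 weeks 17 rose and 11 fell, which is 75.7% of members against 59.2% of all tested genes. By direction, 40.5% of members rose at 4 weeks against 29.3% of all genes, and 27% fell against 27.5%; at 15 weeks 45.9% rose against 31.2%, and 29.7% fell against 28.1%. The share that fell was therefore close to that of all genes, and the share that rose was above it. The median log2 fold change of the members was 0.13 at 4 weeks and 0.34 at 15 weeks, beside 0.01 and 0.015 over all tested genes. The HDM libraries lay entirely above or below the saline libraries for 15 members at 4 weeks, 40.5% against 20% of all tested genes, and for 18 members at 15 weeks, 48.6% against 28.6%. Both comparisons use the same saline libraries. Up to the antibody comparisons, HDM libraries and HDM lungs are those with no antibody. Counts for classes and for lists of other genes below are to be read beside these same shares of all tested genes.

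**Figure D1:**
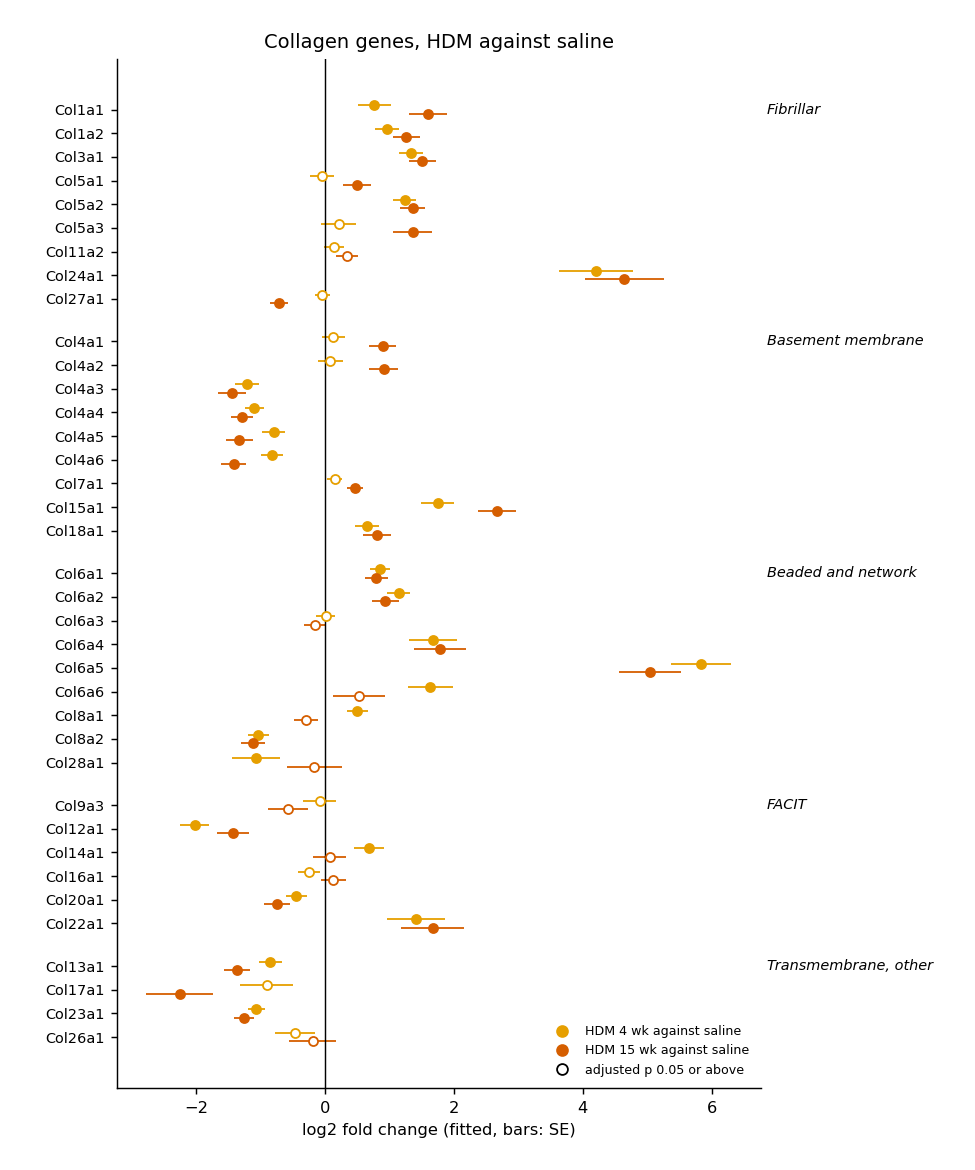
Fitted log2 fold changes of the 37 tested collagen genes after 4 and 15 weeks of HDM against saline, by class. Points are estimates, bars are SE, and open points have an adjusted p of 0.05 or above. Col24a1 and Col6a5 lie farthest to the right, and Col4a3, Col4a4, Col4a5 and Col4a6 lie left of 0 while Col15a1 lies right of it.

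Collagen genes took 0.466 ± 0.0272% of counts in saline (SD, n = 7), 0.617 ± 0.109% at 4 weeks (n = 10) and 0.656 ± 0.195% at 15 weeks (n = 7). Per kilobase of transcript, Col4a1 had the highest level of any collagen in saline lungs at 98.9 ± 9.04 CPM per kb, a value within the spread of Col3a1 at 92.1 ± 20.9. At 4 weeks Col3a1 came first at 232 ± 45.3 CPM per kb, ahead of Col6a1 at 123 ± 15.6 and Col1a2 at 119 ± 18.3, which did not differ beyond their spread. At 15 weeks Col3a1 had 265 ± 74.7 CPM per kb and Col4a1 183 ± 101. Their spreads between libraries overlap, and Col3a1 was the higher within every library.

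Among fibrillar collagens 5 of the 9 tested rose at 4 weeks and none fell, and 7 rose and 1 fell at 15 weeks. Col1a1 and Col1a2 encode the chains of type I collagen, the main fibre of interstitial matrix. Col1a1 (Entrez 12842, chr11:94936224-94953042, positions here being RefSeq's in GRCm38.p6) had lowest, median and highest levels of 170.3, 201 and 232 CPM in saline, 261, 331 and 509 CPM at 4 weeks and 238, 418 and 1662 CPM at 15 weeks. Every HDM library of both times lay above every saline library, and at 15 weeks libraries 1 and 4 stood far above the other 5. The TMM factors of these libraries, 0.6935 and 0.8783, were the lowest of all libraries, and a lower factor raises the CPM of every gene in a library. The log2 fold change of Col1a1 was 0.77 ± 0.26 (adjusted p = 0.0112) at 4 weeks and 1.60 ± 0.30 (adjusted p = 1.69e-05) at 15 weeks by edgeR. Col1a2 had 267, 319 and 367 CPM in saline, 498, 632 and 826 CPM at 4 weeks and 412, 679 and 1550 CPM at 15 weeks, again with no overlap with saline, and changed by 0.96 ± 0.19 (adjusted p = 4.08e-05) and 1.26 ± 0.21 (adjusted p = 2.63e-06) at the 2 times.

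Col3a1 (Entrez 12825, chr1:45311538-45349706) encodes type III collagen, a single-chain-type collagen that forms mixed fibres with type I in distensible tissues. Its lowest, median and highest levels were 378, 492 and 724 CPM in saline, 778, 1304 and 1575 CPM at 4 weeks and 1009, 1348 and 2210 CPM at 15 weeks. No HDM library overlapped the saline range, and the 4-week and 15-week ranges overlapped widely. The fitted change on the log2 scale was 1.33 ± 0.19 (adjusted p = 3.37e-07) at 4 weeks and 1.51 ± 0.21 (adjusted p = 1.13e-07) at 15 weeks. Per length, Col3a1 stood at 2.66 ± 0.574 times Col1a1 in saline (SD, n = 7), 3.99 ± 0.680 times at 4 weeks (n = 10) and 3.30 ± 1.20 times at 15 weeks (n = 7), with overlapping ranges.

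Type V collagen is built into type I fibres and helps to start them, and of its genes Col5a2 was called at both times and Col5a1 and Col5a3 at 15 weeks. Col5a2 had 82.1, 90.8 and 122 CPM in saline, 116, 235 and 269.7 CPM at 4 weeks and 189, 244 and 320.2 CPM at 15 weeks. Its 15-week libraries lay above all saline libraries, while the lowest 4-week library, library 3 with 116 CPM, fell inside the saline range. The log2 fold change of Col5a2 was 1.24 ± 0.18 (adjusted p = 3.95e-07) at 4 weeks and 1.36 ± 0.20 (adjusted p = 2.31e-07) at 15 weeks. Col5a1 was at -0.04 ± 0.19 (adjusted p = 0.86) at 4 weeks and 0.50 ± 0.21 (adjusted p = 0.0427) at 15 weeks, and without 15-week library 1 the second value was 0.25 with adjusted p = 0.244. Without saline library 1 it was 0.47 with adjusted p = 0.0823. Col5a3 was at 0.21 ± 0.27 (adjusted p = 0.51) at 4 weeks and rose by 1.36 ± 0.30 (adjusted p = 0.000235) at 15 weeks. The ratio of Col5a2 to Col5a1 per length was 1.54 ± 0.301 in saline (SD, n = 7), 3.76 ± 0.606 at 4 weeks (n = 10) and 3.25 ± 0.969 at 15 weeks (n = 7), and the 4-week values (2.91 to 4.71) did not overlap those of saline (1.23 to 2.12).

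Col24a1 (Entrez 71355, chr3:145292472-145552013), a minor fibrillar collagen known from developing bone and cornea of mice, had the largest fold in its class. It rested on 2 to 10 reads per library in saline, 42 to 187 at 4 weeks and 41 to 168 at 15 weeks. Levels were 0.267, 0.404 and 0.935 CPM in saline, 5.04, 8.32 and 16.1 CPM at 4 weeks and 5.29, 10.02 and 21.1 CPM at 15 weeks (lowest, median, highest). Every HDM library of both times stood above every saline library. On the log2 scale the change was 4.20 ± 0.58 (adjusted p = 1.68e-07) at 4 weeks and 4.64 ± 0.61 (adjusted p = 5.05e-08) at 15 weeks. Markers of bone and cartilage were read beside it. Of 8 bone markers 3 could be tested and 2 rose at 15 weeks, their sum being 28.8 to 54.5 CPM at 15 weeks and 12.5 to 14.3 CPM in saline, with the osteoblast gene Sp7 at 0 in both. At 15 weeks most of that sum was Alpl and Phex, at means of 18.7 and 15.32 CPM. Bglap, Bglap2 and Ibsp averaged 0.0128, 0.0148 and 0.0528 CPM there. Of 14 cartilage markers 7 could be tested, 3 rose and 2 fell at 15 weeks, and the sum was 90.7 to 267 CPM at 15 weeks and 80.6 to 117.8 CPM in saline. Acan, Snorc and Epyc were at 0 in saline. At 15 weeks Epyc was also at 0, and Acan and Snorc averaged 0.0312 and 0.0179 CPM. Most of the cartilage sum at 15 weeks was Matn4, at a mean of 89.85 CPM. The part of the bone and cartilage markers in the rise of Col24a1 was not tested.

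Col27a1, a fibrillar collagen best known from cartilage, went the other way. It had 21.3, 27.99 and 31.2 CPM in saline, 19.6, 26.1 and 31.1 CPM at 4 weeks and 9.66, 14.6 and 21.1 CPM at 15 weeks. The 4-week and saline ranges overlapped, and all 15-week libraries were below saline. By edgeR the log2 change was -0.04 ± 0.12 (adjusted p = 0.8) at 4 weeks and -0.71 ± 0.14 (adjusted p = 2.35e-05) at 15 weeks. Col11a2, a cartilage collagen, was tested and not called in any comparison.

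The promoter stretches of Col3a1, the most abundant riser, and of Col24a1 and Col6a5, the members with the largest folds, show what precedes their annotated starts. They are RefSeq sequence of GRCm38.p6, 150 bases ending at the base before the start, written 5′ to 3′ in the gene's direction, with matches to the searched motifs in capitals.
Col3a1, chr1:45311388-45311537, plus strand: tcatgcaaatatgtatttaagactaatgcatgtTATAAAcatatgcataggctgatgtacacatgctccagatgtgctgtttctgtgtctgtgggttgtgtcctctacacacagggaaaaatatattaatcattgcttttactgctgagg
Col24a1, chr3:145292322-145292471, plus strand: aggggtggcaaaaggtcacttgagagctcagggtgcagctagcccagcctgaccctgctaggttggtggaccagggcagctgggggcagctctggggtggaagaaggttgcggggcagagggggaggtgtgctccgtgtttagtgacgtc
Col6a5, chr9:105960644-105960793, minus strand: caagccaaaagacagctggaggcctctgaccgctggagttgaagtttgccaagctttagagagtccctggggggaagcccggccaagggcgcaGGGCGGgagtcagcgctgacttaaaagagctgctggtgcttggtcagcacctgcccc
The motifs searched were CCAAT and GGGCGG on both strands and TATAAA on the gene's strand. None of these motifs contains another. The Col6a5 window precedes a start that lies inside the gene's annotated extent. TATAAA stands in the Col3a1 window, GGGCGG in the Col6a5 window and none of the 3 motifs in the Col24a1 window. Over the 38 windows of 35 collagen genes, GGGCGG was in 50.0%, CCAAT in 21.1% and TATAAA in 10.5%, where 28.6%, 24.5% and 4.84% of all 32851 windows held them. A match describes the letters and is not a shown binding site.

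**Figure D2:**
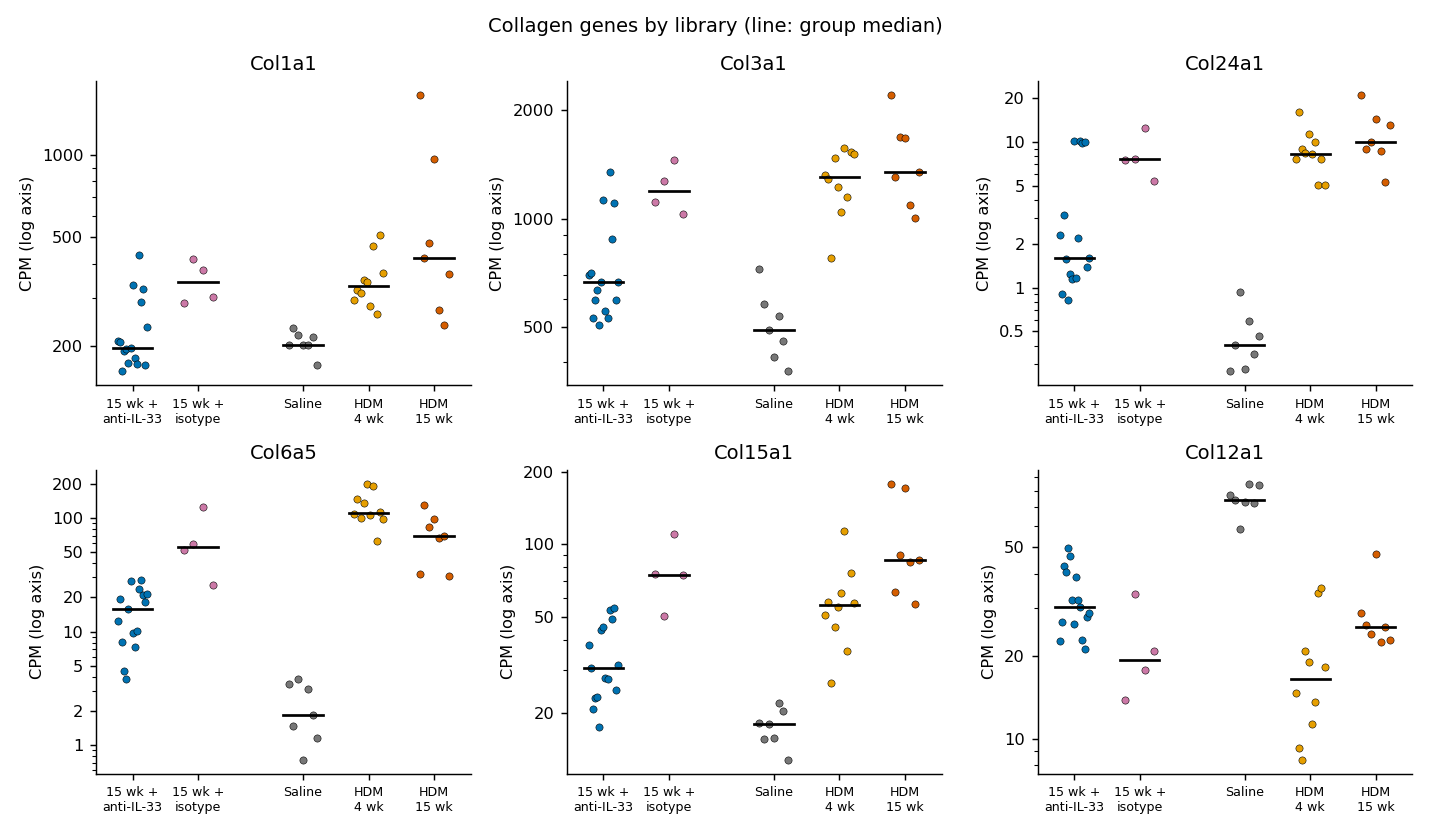
Levels of 6 collagen genes in every library, in CPM on log axes, with 1 point per library and a line at each group's median. Col24a1 and Col6a5 of HDM lungs with no antibody lie wholly above saline. Col12a1 of these lungs lies wholly below saline at both times, and 4 anti-IL-33 libraries stand apart from the other 11 for Col24a1.

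In the basement membrane class 2 of 9 genes rose and 4 fell at 4 weeks, and 5 rose and 4 fell at 15 weeks, so that every member was called at 15 weeks. Type IV chains stood on both sides. Col4a1 and Col4a2, which form the type IV trimer of nearly all basement membranes, were not called at 4 weeks, at 0.13 ± 0.18 (adjusted p = 0.551) and 0.08 ± 0.20 (adjusted p = 0.736), and rose at 15 weeks, by 0.90 ± 0.21 (adjusted p = 3e-04) and 0.91 ± 0.23 (adjusted p = 0.000678). Col4a1 had 587, 654 and 731 CPM in saline, 418, 735 and 856 CPM at 4 weeks and 737, 904 and 2540 CPM at 15 weeks. The 15-week libraries lay above the saline range, and libraries 1 and 4 were highest at 2540 and 1658 CPM. Without library 1 the 15-week log2 fold changes of Col4a1 and Col4a2 were 0.63 and 0.52.

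Col4a3, Col4a4 and Col4a5 encode the chains of the second type IV network, found under alveolar epithelium and in the kidney glomerulus and affected in Alport syndrome, and Col4a6 pairs with the Col4a5 chain in another network. All 4 fell at both times. Col4a3 (Entrez 12828, chr1:82586921-82722059) had 330.2, 349 and 419 CPM in saline, 69.4, 153 and 276 CPM at 4 weeks and 84.5, 118 and 181 CPM at 15 weeks, and no HDM library reached the saline range. It fell by 1.21 ± 0.19 on the log2 scale at 4 weeks (adjusted p = 1.71e-06) and by 1.44 ± 0.22 at 15 weeks (adjusted p = 5.97e-07). The log2 fold changes at 4 and 15 weeks were -1.09 ± 0.15 and -1.29 ± 0.17 for Col4a4, -0.79 ± 0.18 and -1.32 ± 0.20 for Col4a5, and -0.82 ± 0.16 and -1.41 ± 0.19 for Col4a6. For Col4a4 and Col4a6 no HDM library overlapped saline, and for Col4a5 the 4-week range (27.2 to 127 CPM) met the saline range (123 to 159 CPM).

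Per length, the sum of Col4a3, Col4a4 and Col4a5 over the sum of Col4a1 and Col4a2 was 0.416 to 0.588 in saline (median 0.458), 0.140 to 0.309 at 4 weeks (median 0.208) and 0.0342 to 0.217 at 15 weeks (median 0.125). Neither HDM range overlapped that of saline. A ratio shows that the chains changed unequally and not which of them changed.

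**Figure D3:**
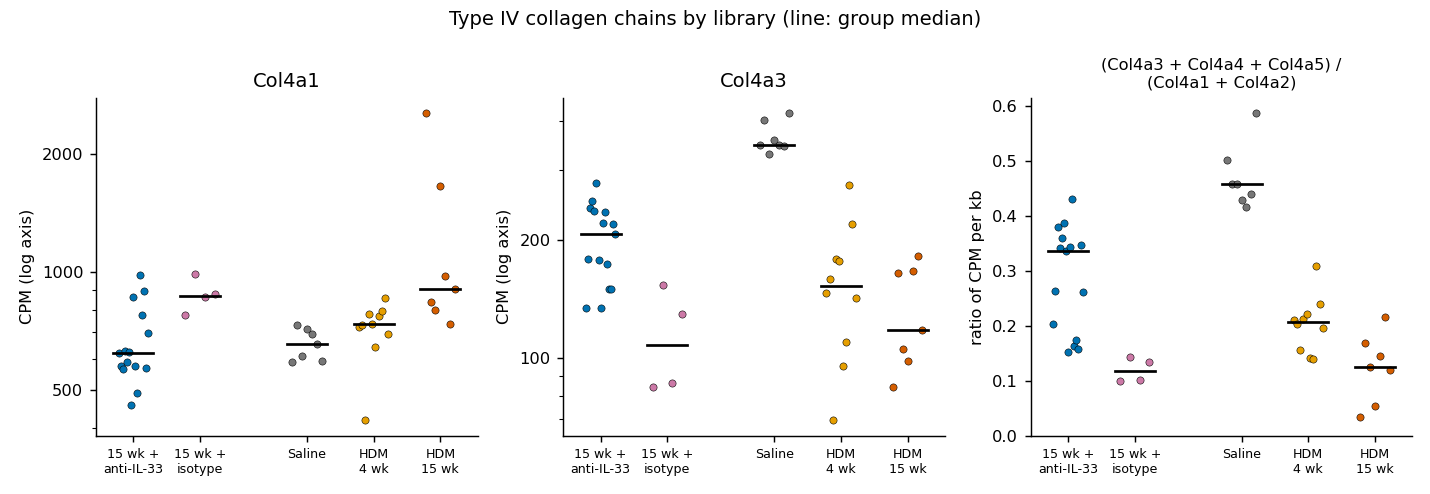
Col4a1 and Col4a3 in CPM (log axes) and the per-length ratio of Col4a3, Col4a4 and Col4a5 to Col4a1 and Col4a2 (linear axis from 0), with 1 point per library and a line at each group's median. The ratio is 0.416 or more in saline, at most 0.309 at 4 weeks and at most 0.217 at 15 weeks with no antibody.

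Markers of type I alveolar cells moved with these chains, and so did some lists of other cells. Median log2 fold changes at 15 weeks were -1.3 for type I alveolar, -1.35 for mesothelial, -1.03 for general fibroblast and -0.85 for endothelial markers. Smooth muscle and pericyte markers were at -0.07 and activated fibroblast markers at 2.12. Of 10 type I alveolar markers 8 fell and 1 rose at 4 weeks and 9 fell at 15 weeks. Their summed level was 6945 to 8444 CPM in saline, 3315 to 5461 CPM at 4 weeks and 2616 to 4662 CPM at 15 weeks, and no marker was at 0. Their part in the fall of Col4a3, Col4a4, Col4a5 and Col4a6 was not tested, and in bulk lung fewer cells of a type and less RNA per cell cannot be told apart. Of the laminins, nidogens and other basement membrane genes listed beside them, 12 of 15 fell at 4 weeks and none rose, and 9 fell and 1 rose at 15 weeks, with a median log2 fold change of -0.39 and -0.33 beside 0.01 and 0.015 over all genes. Npnt, the nephronectin gene, changed by -1.55 ± 0.21 and Lama2, a laminin chain, by -1.24 ± 0.20 at 15 weeks, while Lamb3, a chain of the epithelial laminin 332 complex, rose by 0.90 ± 0.19. Pxdn, the peroxidase that cross-links type IV collagen, changed by -0.92 ± 0.19.

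The remaining basement membrane members rose. Col15a1 (Entrez 12819, chr4:47207655-47313167), a proteoglycan collagen of the zone between basement membrane and matrix, had 12.7, 17.9 and 21.97 CPM in saline, 26.4, 55.9 and 114 CPM at 4 weeks and 56.6, 86.2 and 178 CPM at 15 weeks. Neither HDM group overlapped saline. It changed by 1.75 ± 0.26 (adjusted p = 7.99e-07) at 4 weeks and 2.67 ± 0.29 (adjusted p = 1.41e-09) at 15 weeks. Col18a1, the related collagen from which endostatin is cut, rose by 0.66 ± 0.19 (adjusted p = 0.00297) and 0.81 ± 0.21 (adjusted p = 0.00127). Col7a1, the anchoring fibril collagen, was at 0.15 ± 0.12 (adjusted p = 0.266) at 4 weeks and rose by 0.47 ± 0.13 (adjusted p = 0.00201) at 15 weeks.

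Of the 9 tested beaded and network collagens 6 rose and 2 fell at 4 weeks, and 4 rose and 1 fell at 15 weeks. Over all tested genes 56.8% and 59.2% were called at these times. Type VI collagen is a beaded filament near cell surfaces whose common trimer joins the chains of Col6a1, Col6a2 and Col6a3, and Col6a4, Col6a5 and Col6a6 encode chains that resemble that of Col6a3. Col6a5 (Entrez 665033, chr9:105856070-105962463) showed the largest rise of any collagen gene. It had 0.739, 1.82 and 3.83 CPM in saline, 62.8, 111 and 201 CPM at 4 weeks and 31.2, 69.7 and 131 CPM at 15 weeks, with 8 to 41 reads per library in saline. Every HDM library lay above every saline library. The log2 fold change was 5.83 ± 0.47 (adjusted p = 1.32e-12) at 4 weeks and 5.04 ± 0.48 (adjusted p = 1.27e-10) at 15 weeks.

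Col6a1 and Col6a2 rose and Col6a3 did not pass the test. Col6a1 had 248, 261 and 332 CPM in saline, 391, 493.4 and 603 CPM at 4 weeks and 303, 383 and 1098 CPM at 15 weeks, so the 4-week libraries lay above saline and the 15-week range overlapped it. Col6a1 changed by 0.85 ± 0.16 (adjusted p = 2.13e-05) and 0.80 ± 0.17 (adjusted p = 0.00018), Col6a2 by 1.14 ± 0.18 (adjusted p = 2.7e-06) and 0.94 ± 0.20 (adjusted p = 0.000159), while Col6a3 was at 0.01 ± 0.15 (adjusted p = 0.942) and -0.15 ± 0.17 (adjusted p = 0.431). Without 15-week library 1 the 15-week values of Col6a1 and Col6a2 were 0.52 and 0.61, both still called. Per length, Col6a1 stood at 3.03 ± 0.190 times Col6a3 in saline, 5.73 ± 1.36 times at 4 weeks and 5.77 ± 1.48 times at 15 weeks (SD, n = 7, 10 and 7), with both HDM ranges above that of saline (2.72 to 3.26). Col6a5 per length was 0.0108 ± 0.00629 of Col6a3 in saline, 0.650 ± 0.283 at 4 weeks and 0.401 ± 0.180 at 15 weeks (same n).

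Of the scarcer type VI genes, Col6a4 had 0.154, 0.374 and 2.27 CPM in saline, 0.855, 1.81 and 3.46 CPM at 4 weeks and 1.52, 2.13 and 3.09 CPM at 15 weeks. Saline library 1 was the highest of its group, inside the HDM range, and the other 6 had 0.154 to 0.539 CPM, below every HDM library with no antibody. Col6a4 rose by 1.67 ± 0.37 at 4 weeks and 1.79 ± 0.40 at 15 weeks, and without saline library 1 by 2.29 and 2.47. Col6a6 rose at 4 weeks, by 1.64 ± 0.35 (adjusted p = 0.000141), and was at 0.53 ± 0.41 (adjusted p = 0.266) at 15 weeks. The type VIII chains form networks in vessel walls. Of their genes Col8a2 fell at both times with no overlap with saline, at -1.03 ± 0.16 and -1.11 ± 0.19, and Col8a1 rose at 4 weeks by 0.50 ± 0.17 (adjusted p = 0.01) and was at -0.29 ± 0.19 (adjusted p = 0.187) at 15 weeks. Col28a1, a type VI relative known from peripheral nerve, fell at 4 weeks, at -1.07 ± 0.38 (adjusted p = 0.0154) and was at -0.16 ± 0.42 (adjusted p = 0.759) at 15 weeks.

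FACIT collagens sit on the surface of fibres and link them to other matrix. Col12a1 (Entrez 12816, chr9:79598987-79721141) fell most. It had 58.2, 74.6 and 85.4 CPM in saline, 8.36, 16.5 and 35.5 CPM at 4 weeks and 22.4, 25.6 and 47.4 CPM at 15 weeks. No HDM library reached saline, and 15-week library 4 was the highest of its group at 47.4 CPM. The fitted change on the log2 scale was -2.02 ± 0.22 (adjusted p = 2.05e-09) at 4 weeks and -1.42 ± 0.25 (adjusted p = 9.6e-06) at 15 weeks. Col14a1, a second collagen of type I fibre surfaces, rose at 4 weeks by 0.69 ± 0.23 (adjusted p = 0.0109) and was at 0.08 ± 0.26 (adjusted p = 0.81) at 15 weeks. Col20a1 fell at both times, with log2 fold changes of -0.44 ± 0.17 and -0.74 ± 0.19, and Col16a1 was called at neither time. Col22a1, a collagen of tissue junctions, averaged under 1 CPM in every group and was called higher at both times, and Col9a3 was not called.

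Of the 4 tested transmembrane and other collagens 2 fell at 4 weeks and 3 fell at 15 weeks, and none rose. Col13a1, which sits at cell and matrix contacts, fell at both times, with -0.84 ± 0.18 (adjusted p = 0.000107) at 4 weeks and -1.36 ± 0.20 (adjusted p = 4.1e-07) at 15 weeks, with no overlap with saline. Col23a1 had 73.8, 87.9 and 91.7 CPM in saline, 31.5, 42.02 and 47.5 CPM at 4 weeks and 24.6, 35.5 and 41.5 CPM at 15 weeks. Its HDM libraries all lay below saline, and it changed by -1.06 ± 0.13 (adjusted p = 2.52e-08) and -1.25 ± 0.15 (adjusted p = 8.4e-09). Col17a1, the hemidesmosome collagen that ties basal epithelial cells to their basement membrane, had 7.66, 8.79 and 9.79 CPM in saline, 1.94, 3.71 and 14.04 CPM at 4 weeks and 0.902, 1.29 and 3.49 CPM at 15 weeks. Its 15-week libraries lay below saline, while 4-week library 10 lay above it. On the log2 scale the change was -0.90 ± 0.41 (adjusted p = 0.061) at 4 weeks and -2.25 ± 0.52 (adjusted p = 0.00031) at 15 weeks. Library 10 of 4 weeks and libraries 7 and 12 of anti-IL-33 also had basal epithelial markers (Krt5, Krt14 and 6 others) summing to 170.8, 302.7 and 162.4 CPM, where the other libraries had at most 27.4 CPM, and skeletal muscle markers summing to 1355, 624.5 and 454 CPM, where the others had at most 130.7 CPM. Their part in the level of Col17a1 was not tested. Without these 3 libraries Col17a1 fell at 4 weeks too, by 1.27 on the log2 scale (adjusted p = 4.8e-05).

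Library titles carry sample numbers from 2 blocks, called ranges 1 and 2, whose meaning is not stated, and saline has 2 libraries in range 1 and 5 in range 2. Within ranges 1 and 2 alone, 10 and 22 members were called at 4 weeks and 23 and 20 at 15 weeks. Of all genes tested there, 14.9% and 57.7% were called at 4 weeks and 27.1% and 43% at 15 weeks. At 4 weeks Col3a1 was at 0.91 in range 1 (adjusted p = 0.053) and 1.57 in range 2, Col6a5 at 5.64 and 5.93, and Col4a3 at -1.43 and -1.07. At 15 weeks Col3a1 was at 1.30 and 1.38, Col24a1 at 5.18 and 4.12, Col15a1 at 2.81 and 2.02, Col6a5 at 5.04 and 4.59, and Col4a3 at -1.60 and -1.25. Col1a1 at 15 weeks was at 1.82 in range 1 and 0.60 in range 2 (adjusted p = 0.122), where 2 of the 7 libraries of that group lie.

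Between 15 and 4 weeks of HDM 7 members were higher and 7 lower, 37.8% of members against 21.4% of all tested genes. By direction 18.9% were higher against 12.3% of all genes, and 18.9% lower against 9.08%. Higher were Col1a1, Col5a1, Col5a3, Col4a1, Col4a2, Col7a1 and Col15a1, with log2 fold changes from 0.32 (Col7a1) to 1.15 (Col5a3). Lower were Col27a1, Col4a5, Col4a6, Col6a6, Col8a1, Col13a1 and Col17a1, from -0.52 (Col13a1) to -1.35 (Col17a1). Col3a1 and Col24a1 were at 0.18 ± 0.19 (adjusted p = 0.521) and 0.43 ± 0.42 (adjusted p = 0.484). The 2 groups overlapped for every member, where 2% of all tested genes did not overlap. A correction for length and GC of the genes gave 5 higher and 12 lower, with 4202 of all genes called in place of 3334. Without 15-week library 1 it was 4 higher and 7 lower, with Col1a1 at 0.40 (adjusted p = 0.199), Col4a1 at 0.49, Col4a2 at 0.42 and Col5a1 at 0.27 (adjusted p = 0.247). Col4a5, Col7a1 and Col17a1 also lost their call without it, and Col6a1 and Col6a2 became lower, at -0.34 and -0.55. Col7a1 also lost its call without saline library 1, at 0.31 (adjusted p = 0.052). Range 1 alone called 7 higher and 1 lower with 1406 of all genes, and range 2 alone none higher and 3 lower with 149 of all genes.

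The antibody comparisons ask which collagen genes differed in mice given anti-IL-33 in a 15-week HDM exposure. Both use the same 15 anti-IL-33 libraries, set against 4 isotype libraries or against 7 libraries with no antibody. Against isotype 5 members were higher and 5 lower, 27% of members where 6.71% of all tested genes changed. Each direction held 13.5% of members, against 3.58% of all genes higher and 3.14% lower. These shares moved with the libraries in the fit. Without 15-week library 1, 14 members and 2408 of 15591 genes (15.4%) were called against isotype, without that library and 4-week library 3 17 members and 4639 of 15577 genes (29.8%), and with only the anti-IL-33 and isotype libraries 18 members and 4134 of 15308 genes (27%). Against no antibody 9 were higher and 17 lower, 70.3% of members where 35.8% of all tested genes changed. By direction 24.3% were higher against 15.9% of all genes, and 45.9% lower against 19.9%. The isotype and no-antibody groups themselves gave no called member and no called gene by edgeR (6 members and 933 genes at an unadjusted p under 0.05). DESeq2 called 8 genes and no member, and limma none. The members' median log2 fold change between them, isotype over no antibody, was -0.23, beside -0.025 over all genes. The 2 groups overlapped for every member, where 0.314% of all tested genes did not overlap.

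**Figure D4:**
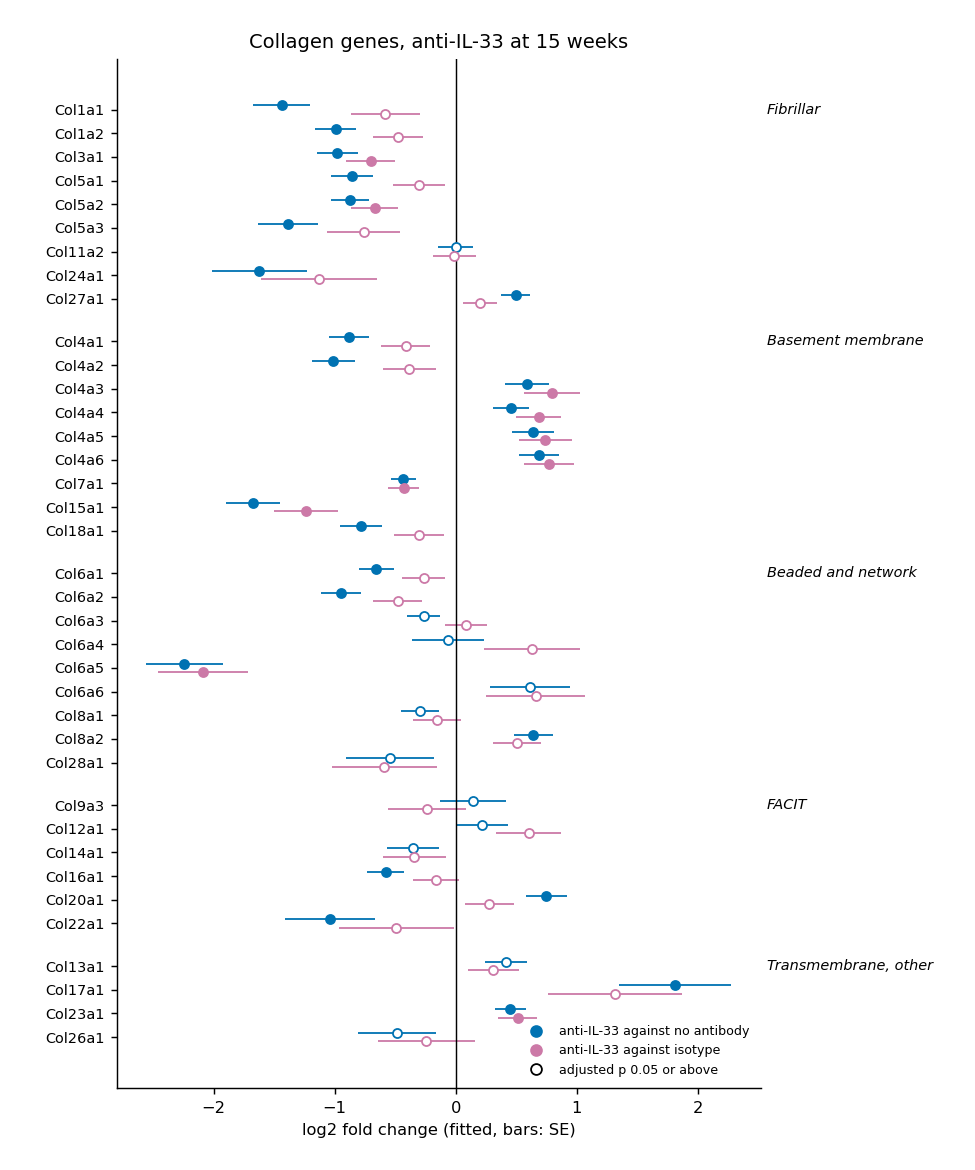
Fitted log2 fold changes of the 37 tested collagen genes with anti-IL-33 against no antibody and against isotype at 15 weeks, by class. Points are estimates, bars are SE, and open points have an adjusted p of 0.05 or above. Col6a5 lies farthest to the left at -2.24 and -2.09, and Col4a3, Col4a4, Col4a5 and Col4a6 lie right of 0 in both.

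Col6a5 had the largest difference with anti-IL-33. It had 3.83, 15.9 and 28.4 CPM (lowest, median, highest) in anti-IL-33 lungs, 52.5, 59.4, 124 and 25.6 CPM in the 4 isotype lungs and 31.2, 69.7 and 131 CPM in lungs with no antibody. The anti-IL-33 libraries lay below every library with no antibody, and the highest 2, at 28.4 and 27.6 CPM, were above the lowest isotype library. By edgeR the log2 change was -2.09 ± 0.37 (adjusted p = 0.00121) against isotype and -2.24 ± 0.32 (adjusted p = 1.11e-05) against no antibody. It was above saline, by 2.80 ± 0.43 (adjusted p = 1.85e-06), with 14 of the 15 libraries above the highest saline library. Col15a1 had 17.4, 30.7 and 54.4 CPM in anti-IL-33 lungs, 74.9, 50.1, 110.5 and 74.2 CPM in isotype lungs and 56.6, 86.2 and 178 CPM in lungs with no antibody. Here too the anti-IL-33 libraries lay below every library with no antibody. Col15a1 changed by -1.24 ± 0.27 (adjusted p = 0.00647) against isotype, by -1.67 ± 0.22 (adjusted p = 6.88e-06) against no antibody and by 1 ± 0.25 (adjusted p = 0.00125) against saline.

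Col3a1 had 506, 668 and 1354 CPM in anti-IL-33 lungs, 1117, 1272, 1461 and 1032 CPM in isotype lungs and 1009, 1348 and 2210 CPM in lungs with no antibody, and the ranges overlapped. It was lower, at -0.70 ± 0.20 (adjusted p = 0.0352) against isotype and -0.98 ± 0.17 (adjusted p = 0.000101) against no antibody, and higher than saline by 0.54 ± 0.17 (adjusted p = 0.0136). Col5a2 was lower, at -0.67 ± 0.19 (adjusted p = 0.0333) and -0.87 ± 0.16 (adjusted p = 0.000162), and so was Col7a1, at -0.43 ± 0.13 (adjusted p = 0.0413) and -0.43 ± 0.11 (adjusted p = 0.00243). Against no antibody 7 of the 9 tested fibrillar genes were lower, Col1a1 at -1.44 ± 0.24 (adjusted p = 6.12e-05) and Col1a2 at -0.99 ± 0.17 (adjusted p = 8.02e-05), and Col27a1 was higher by 0.49 ± 0.12 (adjusted p = 0.00174). Against isotype Col1a1 was at -0.58 ± 0.28 (adjusted p = 0.174) and Col1a2 at -0.48 ± 0.20 (adjusted p = 0.124), and neither passed the test. The levels of Col1a1 were 161, 195 and 430.3 CPM with anti-IL-33, 287, 416, 379 and 303 CPM with isotype and 238, 418 and 1662 CPM with no antibody.

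The type IV chains that fell with HDM were higher with anti-IL-33. Their calls against isotype were lost without isotype library 1 and without isotype library 3, as given below. Col4a3 had 134, 206 and 279 CPM in anti-IL-33 lungs, 84.2, 153, 86.2 and 129 CPM in isotype lungs and 84.5, 118 and 181 CPM in lungs with no antibody, with overlap between all 3. Against isotype Col4a3 was higher by 0.80 ± 0.23 (adjusted p = 0.0361), Col4a4 by 0.69 ± 0.18 (adjusted p = 0.0262), Col4a5 by 0.74 ± 0.22 (adjusted p = 0.0378) and Col4a6 by 0.77 ± 0.21 (adjusted p = 0.0255). Against no antibody the same 4 genes were higher by 0.46 (Col4a4) to 0.69 (Col4a6), and without 15-week library 1 Col4a3 was at 0.51 (adjusted p = 0.0508). All anti-IL-33 libraries remained below the saline range for these 4 genes. Col4a1 was lower, at -0.88 ± 0.17 (adjusted p = 0.000242), against no antibody and at -0.41 ± 0.20 (adjusted p = 0.173) against isotype. The per-length ratio of Col4a3, Col4a4 and Col4a5 to Col4a1 and Col4a2 was 0.152 to 0.431 with anti-IL-33 (median 0.337), 0.101 to 0.144 with isotype, 0.0342 to 0.217 with no antibody and 0.416 to 0.588 in saline. The anti-IL-33 ratios lay above all 4 isotype ratios. Type I alveolar markers were higher in 2 of 10 against isotype and in 6 of 10, with 1 lower, against no antibody, and summed to 2925 to 6176 CPM with anti-IL-33, 2823 to 3567 CPM with isotype and 2616 to 4662 CPM with no antibody. Their part in the type IV difference was not tested.

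The anti-IL-33 and isotype libraries did not overlap for 1 member, 2.7% against 2.43% of all tested genes. It was Col8a2, with 12.3 to 23.1 CPM in anti-IL-33 lungs and 11.7, 10.7, 9.36 and 11.2 CPM in isotype lungs, and its log2 fold change of 0.51 ± 0.20 (adjusted p = 0.0983) was not called. Against no antibody the groups did not overlap for Col6a5 and Col15a1, 5.41% of members against 0.417% of all tested genes. The remaining call against isotype was Col23a1, higher by 0.51 ± 0.16 (adjusted p = 0.046). Against no antibody Col8a2, Col17a1, Col20a1 and Col23a1 were higher, by 0.45 (Col23a1) to 1.81 (Col17a1), and Col6a1, Col6a2, Col16a1, Col18a1 and Col22a1 lower, at -0.58 (Col16a1) to -1.04 (Col22a1). Without 15-week library 1 Col16a1 was at -0.29 (adjusted p = 0.0717), Col6a1 at -0.37, Col6a2 at -0.60, Col18a1 at -0.51 and Col4a2 at -0.60, the last 4 still called. Col22a1 lost its call without that library, at -0.90 (adjusted p = 0.0905). Without anti-IL-33 libraries 7 and 12 and 4-week library 10 Col17a1 was at 1.16. Col12a1 was called in neither comparison, at 0.60 ± 0.27 (adjusted p = 0.14) against isotype and 0.22 ± 0.21 (adjusted p = 0.43) against no antibody, and was below saline at -1.21 ± 0.20 (adjusted p = 7.96e-06). Against saline 7 members were higher and 11 lower with anti-IL-33, 48.6% of members where 38.6% of all tested genes changed. By direction 18.9% were higher against 20% of all genes, and 29.7% lower against 18.5%. The anti-IL-33 and saline libraries did not overlap for 7 members (18.9% against 9.86% of all tested genes).

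The isotype comparison depended on single libraries. Leaving out isotype library 1, 2, 3 or 4 left 2, 6, 0 and 6 called members in place of 10, and 94, 935, 58 and 683 called genes in place of 1047. Of the called members 0, 4, 0 and 1 were higher, in place of 5. Col4a3, Col4a4, Col4a5 and Col4a6 therefore all lost their calls without library 1 and without library 3. Without library 4 at most 1 of them kept its call. Without isotype library 3 Col6a5 was at -1.58 (adjusted p = 0.0616) and Col15a1 at -0.997 (adjusted p = 0.102). A correction for length and GC of the genes gave 3 higher and 11 lower members against isotype, with 1330 of all genes called in place of 1047. In range 1 alone Col6a5 was at -2.65, Col15a1 at -1.38, Col3a1 at -0.91 and Col4a3 at 0.92 against isotype. There 3 members and 297 of all genes were called. All 3 members were lower, so Col4a3 was not called in that range. In range 2, with 1 isotype library and 2 with no antibody, no member was called against either by edgeR, where 1 of 16090 genes was called against isotype and 4 against no antibody. At an unadjusted p under 0.05 the members were 2 and 10, and without isotype library 3 they were 13. In range 2 Col6a5 was at -0.48 against isotype and -1.46 against no antibody. In range 1 alone 24 members were called against no antibody, with 23% of all genes.

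Within the anti-IL-33 group 4 libraries stood apart for Col24a1. Libraries 8, 11, 12 and 13 had 10.2, 10.1, 9.84 and 9.92 CPM, and the other 11 had 0.820 to 3.14 CPM. The isotype libraries had 7.55, 7.68, 12.4 and 5.40 CPM, the libraries with no antibody 5.29 to 21.1 CPM and saline 0.267 to 0.935 CPM. So the 4 libraries lay within the range of HDM lungs with no antibody and the other 11 below it. Of these 11, libraries 2 and 5 lay within the saline range and 9 above it. The log2 fold change of Col24a1 was -1.13 ± 0.48 (adjusted p = 0.122) against isotype and -1.62 ± 0.39 (adjusted p = 0.00228) against no antibody. The same 4 libraries were the highest 4 of the group for Col1a1, Col1a2, Col3a1, Col5a2, Col4a1, Col4a2 and Col15a1 as well. Col1a1 was at 332, 430.3, 289 and 322 CPM in them and at most 234 CPM in the other 11. For Col6a5 they were not the highest, with library 8 at 9.74 CPM and library 7, outside the 4, at 27.6 CPM. The same 4 were also the highest of the group for the summed markers of activated fibroblasts, at 2547, 2629, 3082 and 3183 CPM. The other 11 had 672.7 to 2076 CPM. In HDM lungs with no antibody most of this sum was Spp1, which macrophages also make, at a mean of 2779 CPM at 15 weeks. Type I alveolar markers summed to 2925, 3568, 3132 and 3073 CPM in the same 4 libraries and 3238 to 6176 CPM in the other 11. The part of these cells in the levels of Col24a1 and the other genes was not tested. The labels do not set the 4 libraries apart, which were picked by their Col24a1 levels in these data. They are set beside the other 11 by value only, and no test was run between them. Library 12 also had the high basal epithelial and skeletal muscle marker sums given above, 162.4 and 454 CPM.

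**Figure D5:**
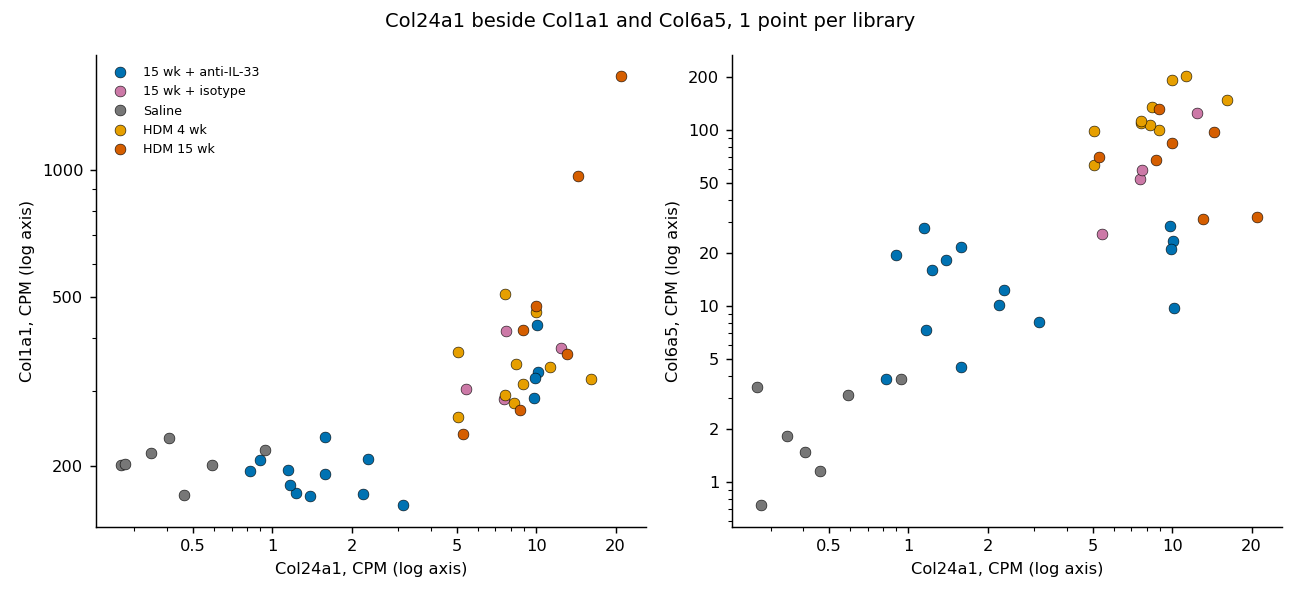
Col24a1 against Col1a1 and against Col6a5, in CPM on log axes, with 1 point per library and colour for group. The anti-IL-33 libraries form 2 clusters along Col24a1, at 3.14 CPM or less and at 9.84 CPM or more, and the clusters do not overlap in Col1a1 but do in Col6a5.

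Genes that make, process and degrade collagen were read from lists beside the members, and the genes named are those with the smallest p at 15 weeks against saline. Of 22 genes of collagen biosynthesis in the endoplasmic reticulum 8 rose and 7 fell at 4 weeks and 11 rose and 4 fell at 15 weeks. Over all tested genes 29.3% rose and 27.5% fell at 4 weeks, and 31.2% rose and 28.1% fell at 15 weeks. With anti-IL-33 3.58% of all tested genes were higher and 3.14% lower against isotype, and 15.9% higher and 19.9% lower against no antibody. Colgalt1, a collagen galactosyltransferase, was at 178 ± 11.2 CPM at 15 weeks and 95.04 ± 8.54 CPM in saline and rose by 0.96 ± 0.12, while its relative Colgalt2 changed by -1.76 ± 0.23. P4hb, the shared subunit of prolyl hydroxylase, rose by 0.92 ± 0.12 and Ppib, a proline isomerase that speeds folding of the triple helix, by 0.80 ± 0.12. With anti-IL-33 none of the 22 was higher and 2 were lower against isotype, Ppib among them at -0.37 ± 0.12 (adjusted p = 0.0474), and 2 were higher and 10 lower against no antibody.

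Of 12 tested genes for propeptide removal and cross-linking 5 rose and 3 fell at both times. Bmp1, which removes the carboxyl propeptide, rose by 0.89 ± 0.14 at 15 weeks and Adamts2, which removes the amino propeptide, by 0.70 ± 0.17, while Adamts14 changed by -0.82 ± 0.16 and Pcolce2, an enhancer of carboxyl propeptide removal, by -2.08 ± 0.26. With anti-IL-33 none was called against isotype (edgeR), and 1 was higher and 7 lower against no antibody. Of 10 fibre partners 3 rose and 3 fell at 15 weeks, with Fn1, fibronectin, at 1.29 ± 0.21, Thbs2 at 2.19 ± 0.40 and Fmod, fibromodulin, at 1.76 ± 0.29, and Tnxb, which links fibres, at -1.54 ± 0.23. Tnxb was the 1 partner called against isotype, higher with anti-IL-33 by 1.03 ± 0.25 (adjusted p = 0.0162).

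Collagenases and uptake receptors rose in 6 of 9 at 15 weeks with none lower, and in 5 of 9 with 1 lower at 4 weeks. Ctsk, the collagen-cleaving cathepsin K, was at 684 ± 155 CPM at 15 weeks (SD, n = 7) and 20.4 ± 9.54 CPM in saline (n = 7) and rose by 5.18 ± 0.54. Mmp14, a membrane collagenase, rose by 1.67 ± 0.19, Mrc1, a mannose receptor that takes up collagen, by 1.61 ± 0.28 and Mmp2 by 0.85 ± 0.15. With anti-IL-33 3 of 9 were lower against isotype, Mmp14 among them at -0.58 ± 0.18 (adjusted p = 0.0474), and Ctsk was at -0.34 ± 0.46 (adjusted p = 0.644). Collagen receptors fell in 7 of 10 and rose in 2 at 15 weeks. Itga1, an integrin chain that binds type IV collagen, changed by -1.41 ± 0.26 and Ddr2, a receptor kinase for fibrillar collagen, by -0.80 ± 0.14, while Adgrg1, a receptor of type III collagen, rose by 1.29 ± 0.20 and Lair1, an inhibitory receptor of leukocytes, by 0.77 ± 0.17. None of the 10 was called against isotype by edgeR.

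Markers of collagen-making and neighbouring cells were read as lists. General fibroblast markers fell in 7 of 12 and rose in 1 at 15 weeks, and summed to 3198 to 3769 CPM in saline, 1884 to 2804 CPM at 4 weeks and 1121 to 1899 CPM at 15 weeks. Markers of activated fibroblasts, some of which macrophages also make (Spp1 among them), rose in 7 of 10 and fell in 1 at 15 weeks. They summed to 507 to 595 CPM in saline, 1090 to 3442 CPM at 4 weeks and 2665 to 6786 CPM at 15 weeks. Most of the sum in HDM lungs with no antibody was Spp1, which averaged 1534 CPM at 4 weeks and 2779 CPM at 15 weeks. With anti-IL-33 the activated list summed to 673 to 3183 CPM, with isotype 1879 to 5411 CPM, and 4 of 10 were lower against isotype. Npnt stands in both the fibroblast and the basement membrane list, and Postn and Dpt in both a marker list and the list of fibre partners. Smooth muscle and pericyte markers rose in 1 of 11 and fell in 3 at 15 weeks, after 6 rose and 2 fell at 4 weeks. Mesothelial markers fell in 6 of 7 and endothelial markers in 10 of 12 at 15 weeks. No marker of these 5 lists was at 0 in any group, and their part in the collagen differences was not tested.

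The filter on low counts removed 7 members, Col2a1, Col9a1, Col9a2, Col10a1, Col11a1, Col19a1 and Col25a1, with 7 to 212 reads each over all 43 libraries and at most 16 in 1 library. With no filter on low counts edgeR called 2 of these 7, where 44.7% of the 20800 genes then tested were called at 15 weeks against saline. Col9a2 had reads in 6 of 7 libraries at 15 weeks, 12 of 15 with anti-IL-33, 3 of 4 with isotype and 4 of 10 at 4 weeks, and in no saline library. It was called higher at 15 weeks against saline (adjusted p = 0.00043) and against 4 weeks (adjusted p = 0.0309), and with anti-IL-33 against saline (adjusted p = 0.000495). Col10a1 had reads in 4 of 7 libraries at 15 weeks and in no saline library, and was called higher between them (adjusted p = 0.0233). That call rests on single reads, as Col10a1 had 7 reads over all libraries and at most 1 in any library. The other 5 were called in no comparison without the filter. Of the 37 tested members Col9a3, Col11a2 and Col26a1 were called in no comparison. Their group means were 0.6997 to 1.13 CPM for Col9a3, 3.56 to 4.39 CPM for Col11a2 and 0.450 to 0.817 CPM for Col26a1.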

How the data were processed

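The 43 lung libraries were analysed from 1 table of gene counts. Per the labels' protocols the libraries were strand-specific mRNA libraries, and the submitters' processing notes name build GRCm38. The authors deposited whole-number counts per Entrez gene; the aligner, counter, annotation and strand setting were not given in the sources used here. Of 24475 IDs 24375 had a symbol, and the other 100 held 2.62% of counts. Groups came from the titles. Genes kept by edgeR's filterByExpr (15598) were scaled by TMM and fitted with edgeR 4.0.16 (R 4.3.3) by quasi-likelihood with robust dispersion, with group and the 2 ranges of sample numbers as terms, and 7 comparisons were drawn from that fit. Per-length levels divide CPM by the longest annotated coding transcript. Named members were called in at least 1 comparison and reached a mean of 2 CPM in their highest group (33 of the 37 tested). In each companion list the 4 genes with the smallest p for 15 weeks against saline are named. The fit was tested on simulated data. Alternatives were RLE factors, other filters (1 CPM in 10 libraries, or none), no range term, each range alone, 2 groups alone, DESeq2 1.42.0, limma 3.58.1, a correction for GC content and length with mgcv 1.9.3, and left-out libraries. Members and lists were chosen with earlier results of these data known. Overlapping collagen genes on opposite strands can share reads if strand was not used in counting.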

Additional observations from a re-analysis of the deposited data

Results flagged for a closer look

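Among 132 sets of 1 named collagen gene in 1 group of 7 or 10 libraries, or of the 4 isotype libraries, 10 held a library far from the others by Dixon's test, where chance gives about 1 in 20. At 15 weeks with no antibody, library 1 was the highest for many genes, among them Col1a1, Col3a1 and Col4a1, which Dixon's test did not flag. It was flagged as the highest for 4 genes. It had 2592 CPM of Col4a2, with the next library at 1298 CPM, 1098 CPM of Col6a1 (next 599.6), 807.6 CPM of Col6a2 (next 438.8) and 109.6 CPM of Col16a1 (next 61.1). Library 4 of that group was highest for Col12a1, at 47.4 CPM with the next at 28.7 CPM, and for Col14a1, at 270.6 CPM with the next at 87.4 CPM. At 4 weeks library 3 was lowest for Col4a1, at 417.5 CPM with the next at 641.5 CPM, and for Col5a2, at 116 CPM with the next at 205.9 CPM. Library 10 of 4 weeks was highest for Col17a1, at 14.04 CPM with the next at 4.79 CPM. In saline library 1 was highest for Col6a4, at 2.27 CPM with the next at 0.539 CPM.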

How the results depend on the processing

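The alternative settings gave 4158 fold changes of named members. Of these 3744 stayed the same, 199 lost the call, 68 gained one, 142 moved and 5 reversed. Same means a call kept with its direction or, with no call in either fit, a value within 1 SE of the main one. Moved means no call in either fit and a larger shift. Reversed means a changed direction with a call in at least 1 of the fits. With number range 1 alone the called members were 10 in place of 25 for 4 weeks against saline (all genes 2308 in place of 8864), 8 in place of 14 between 15 and 4 weeks (1406 in place of 3334), 3 in place of 10 for anti-IL-33 against isotype (297 in place of 1047) and 2 in place of 18 for anti-IL-33 against saline (578 in place of 6015). With range 2 alone they were 3 between 15 and 4 weeks (all genes 149), 0 by edgeR with anti-IL-33 against isotype (1) and 0 in place of 26 for anti-IL-33 against no antibody (4 in place of 5588). With only the 2 groups compared they were 2 between 15 and 4 weeks (1232) and 18 for anti-IL-33 against isotype (4134). With 15-week library 1 and 4-week library 3 left out they were 17 for anti-IL-33 against isotype (4639), and leaving out 1 isotype library gave 0 to 6 (58 to 935). The 5 reversals all came with range 2 alone: Col5a1 at -0.14 for 15 weeks against saline, Col1a1 at -0.29, Col5a1 at -0.25 and Col18a1 at -0.75 (adjusted p = 0.0411) for 15 against 4 weeks, and Col18a1 at 0.019 for anti-IL-33 against no antibody. Each range alone holds fewer libraries; the cause was otherwise not tested. The settings without 15-week library 1 alone, without saline library 1 and without 3 libraries with high basal epithelial markers were chosen after seeing the data. No paired analysis was possible because the groups share no replicate numbers in the labels.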

Other observations

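Several collagen genes lie next to each other in the genome. Col4a1 and Col4a2 overlap by 85 bases on opposite strands of chromosome 8 of GRCm38.p6, and Col4a4 and Col4a3 overlap by 114 bases on chromosome 1. At 15 weeks against saline the first pair was at 0.90 ± 0.21 and 0.91 ± 0.23, and the second at -1.29 ± 0.17 and -1.44 ± 0.22. Col3a1 and Col5a2, 24624 bases apart on chromosome 1 and pointing towards each other, were at 1.51 ± 0.21 and 1.36 ± 0.20. Col6a6, Col6a5 and Col6a4 stand in a row on chromosome 9, with gaps of 27823 and 27854 bases, and were at 0.53 ± 0.41, 5.04 ± 0.48 and 1.79 ± 0.40. At 4 weeks these 3 were at 1.64 ± 0.35, 5.83 ± 0.47 and 1.67 ± 0.37.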
